A study of Mus musculus with 2 samples.

Results

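The genes described here code for the contractile and cytoskeletal proteins of smooth muscle, 42 in all, of which 41 were measured among 21978 genes. A gene entered when a non-control probe on the array carried its name, and 69 probes did. Of these, 64 were well above background in both RNAs of at least 1 label. Lmod1, which codes for an actin filament nucleator of smooth muscle, did not rise well above background in any RNA and has no value. The genes were divided by what they are known for into 21 genes called muscle-restricted and 21 broadly expressed genes of the actin cytoskeleton, of which 20 and 21 were measured. The first class holds early (Acta2, Tagln) and late (Myh11, Actg2, Cnn1, Smtn) genes of a smooth muscle cell. Its name is a label of this division, and expression of its genes outside muscle was not tested.

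The arrays compared ureters, the tubes between kidney and bladder, of E14.5 embryos of the NMRI mouse strain. RNA labelled Bmp4cKO came from Tbx18(cre/+);Bmp4(fl/fl) embryos, in which cre sits in the Tbx18 locus and floxed Bmp4 is meant to be removed where Tbx18 is active, in the ureteric mesenchyme. RNA labelled control came from Tbx18(+/+);Bmp4(fl/?) embryos, which carry at least 1 floxed Bmp4 allele and an intact Tbx18 pair. Each of 2 two-colour arrays held 1 RNA of each label, with the dyes swapped between arrays. The sources used here do not say how many embryos gave an RNA.

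The smooth muscle coat of the ureter forms from the mesenchyme around the epithelial tube, under signals that include Bmp4, a secreted protein of the bone morphogenetic protein family. In a smooth muscle cell, thin filaments of actin, wrapped by tropomyosin, calponin and caldesmon, slide along thick filaments of myosin. Myosin light chain kinase switches myosin on and myosin phosphatase switches it off. The filaments are tied to dense bodies inside the cell and to adhesion plaques at its edge, and desmin filaments link the dense bodies. Myocardin with serum response factor (SRF) drives many of these genes, through a promoter element called the CArG box.

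The direction of every ratio has to be read against the Bmp4 probe. Normalised intensity of the Bmp4 probe at chr14:47003391-47003450 (mm9) was 75598 and 61938 in RNA labelled Bmp4cKO, against 9191 and 4719 in RNA labelled control, on replicates 1 and 2. The targeted gene was therefore higher in the RNA labelled Bmp4cKO, against its label, with a limma adjusted p of 0.016 and a log2 ratio of 3.38 ± 0.48 (SD, n = 2 arrays). The sources used here do not say whether floxing removes this stretch. A second Bmp4 probe, at chr14:47003198-47003257, stayed near background in all 4 channels. Tbx18, the gene that carries cre in the labelled mutant, went with it, by 0.97 ± 0.17 (SD, n = 2; adjusted p = 0.040). In the authors' deposited table the signed folds for Bmp4 were -8.16 and -13.9, the opposite direction. The sample titles name Bmp4cKO against control in that order; if this is the order of the table's folds, the table has Bmp4 lower in Bmp4cKO, as the genotype label would have it. All ratios below put the RNA labelled Bmp4cKO over that labelled control on the log2 scale, as the dye labels give it, and "with Bmp4" means higher in the RNA labelled Bmp4cKO. If the labels of the RNAs were exchanged, every sign would turn, and each gene would keep its side relative to Bmp4.

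The sex labels were also not borne out on 1 array. Both RNAs of replicate 2 are labelled male, yet the Xist probe at chrX:100662174-100662233 had an intensity of 3757 in RNA labelled Bmp4cKO and 232 in RNA labelled control, and the Y-linked Ddx3y had 65.7 in RNA labelled Bmp4cKO and 5638 in RNA labelled control. On replicate 1, labelled female, Xist was bright in both, at 5228 in RNA labelled Bmp4cKO and 5758 in RNA labelled control. Flna is the only X-linked member.

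The largest ratios among the members were those of Myh11, Actg2 and Cnn1, late contractile genes that served here as markers of smooth muscle. They do not stand for all late genes or all markers: Smtn, also late, had log2 ratios of -0.10 and 0.22 on replicates 1 and 2. Myh11 codes for the smooth muscle myosin heavy chain, and its intensity was 1862 and 4411 in RNA labelled Bmp4cKO, against 518 and 506 in RNA labelled control. The groups did not overlap, and the 2 RNAs labelled control lay close together while those labelled Bmp4cKO differed 2.37-fold. The arrays gave log2 ratios of 1.85 and 3.12 for Myh11, with a mean of 2.48 ± 0.90 (SD, n = 2; adjusted p = 0.037). It stood in place 9 of 21978 genes in descending order of ratio, where Bmp4 stood in place 2.

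Actg2, the enteric smooth muscle gamma actin, had intensities of 5208 and 11972 in RNA labelled Bmp4cKO, against 1595 and 1594 in RNA labelled control. Its log2 ratio was 2.31 ± 0.85 (SD, n = 2; adjusted p = 0.038). As for Myh11, the intensities labelled control lay close together, and those labelled Bmp4cKO differed 2.30-fold. The 2 RNAs of a label were read on different arrays in different dyes. RNA, dye and array scaling therefore cannot be told apart in such a spread. Cnn1, calponin 1, which binds thin filaments and damps myosin's activity, had intensities of 9435 and 14412 in RNA labelled Bmp4cKO, against 2853 and 2461 in RNA labelled control. Its log2 ratio was 2.14 ± 0.58 (SD, n = 2; adjusted p = 0.026), and again the groups did not overlap. In bulk RNA, more cells of a type and more RNA per cell cannot be told apart.

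**Figure D1:**
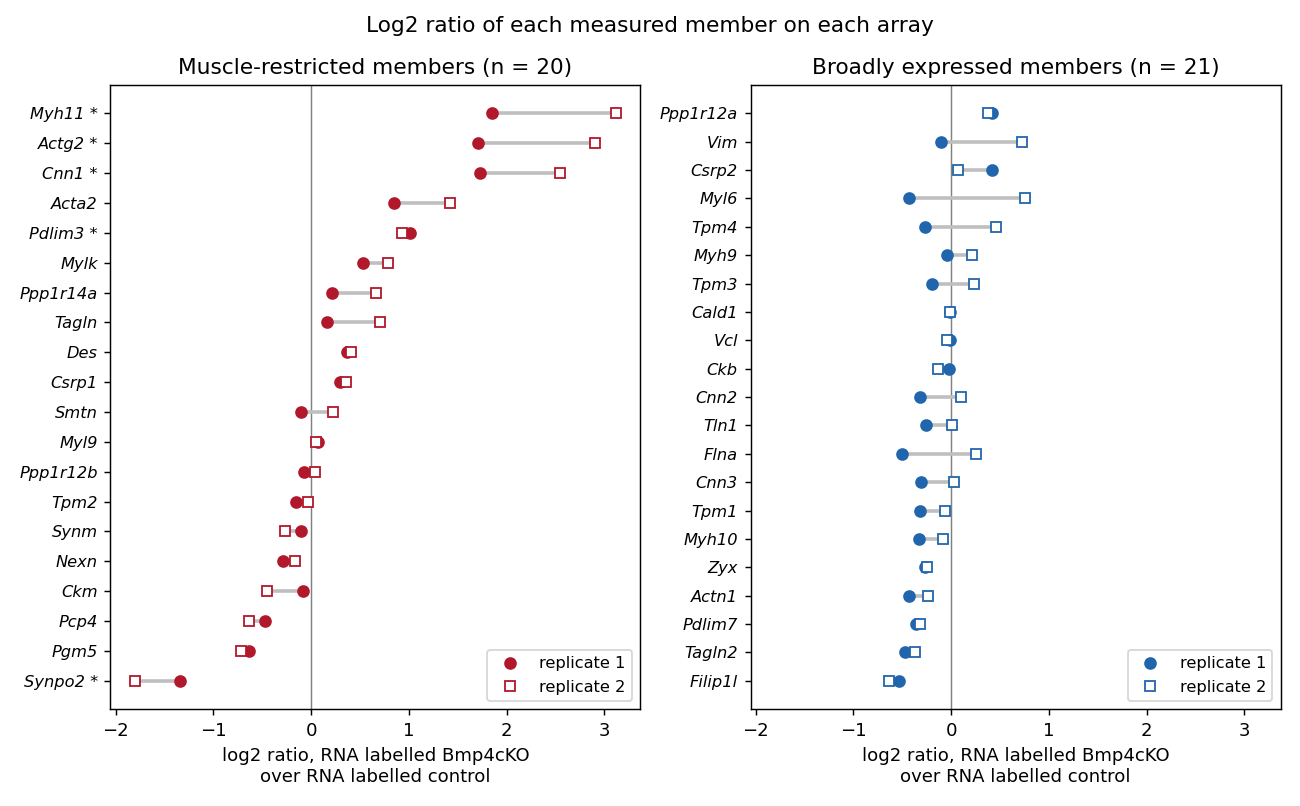
Log2 ratio (horizontal) of RNA labelled Bmp4cKO over RNA labelled control for each measured member, with the muscle-restricted genes on the left and the broadly expressed ones on the right; circles are replicate 1, squares replicate 2, lines join them, and an asterisk marks a limma adjusted p under 0.05. The muscle-restricted genes run from -1.57 (Synpo2) to 2.48 (Myh11) in their mean, the broadly expressed ones from -0.58 (Filip1l) to 0.40 (Ppp1r12a).

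Of the 41 measured members, 4 passed the test as higher in the RNA labelled Bmp4cKO (Myh11, Actg2, Cnn1 and Pdlim3) and 1 as lower (Synpo2). Over all genes, 0.887% passed as higher and 1.02% as lower. Myh11, Actg2 and Cnn1 were at least 2-fold higher on both arrays and Synpo2 at least 2-fold lower on both, against 0.578% and 0.619% of all genes. At an unadjusted p under 0.05 there were 18 of 41 members, against 3191 of 21978 genes. The 5 that passed were all muscle-restricted genes, so that 5 of 20 passed in this class and 0 of 21 in the broadly expressed class. These are counts, the classes were drawn with earlier results of these data known, and the difference between them was not tested.

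Among the thin filament genes, Actg2 and Cnn1 passed the test and the others did not. Acta2, the smooth muscle alpha actin, is among the earliest genes of a smooth muscle cell. Its intensity was 40088 and 44834 in RNA labelled Bmp4cKO, against 22336 and 16752 in RNA labelled control. The groups did not overlap, but the log2 ratio of 1.13 ± 0.41 (SD, n = 2) just missed the threshold (adjusted p = 0.056). Tagln, transgelin or SM22-alpha, another early marker, had intensities of 24030 and 27162 in RNA labelled Bmp4cKO, against 21529 and 16667 in RNA labelled control. The groups did not overlap, at a log2 ratio of 0.43 ± 0.39 (SD, n = 2; adjusted p = 0.34). Smtn, smoothelin, a late marker of contractile smooth muscle that binds actin, had log2 ratios of -0.10 and 0.22 on replicates 1 and 2, far below those of Myh11, Actg2 and Cnn1. Tpm2, the beta tropomyosin, gave -0.15 and -0.036, and differed from Tpm1, described next, by 0.17 and 0.02 on the log2 scale.

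The broadly expressed thin filament genes did not pass the test. Cnn2 and Cnn3, the calponins found outside muscle, had mean log2 ratios of -0.11 ± 0.30 and -0.14 ± 0.24 (SD, n = 2). On each array Cnn1 lay above both of them: by 2.05 and 2.03 on the log2 scale on replicate 1 and by 2.45 and 2.52 on replicate 2. Tagln2, the transgelin of many cell types, had a log2 ratio of -0.42 ± 0.07 (SD, n = 2; adjusted p = 0.19) with the brighter of its probes, and Tagln lay above it by 0.63 and 1.07 on replicates 1 and 2. Tpm1, Tpm3 and Tpm4, the tropomyosins of muscle and non-muscle filaments, averaged -0.19, 0.02 and 0.10. Cald1, caldesmon, which has smooth muscle and non-muscle forms, was at -0.0088 and -0.0075 on the 2 arrays. Over the 13 measured thin filament genes, 2 passed as higher and 0 as lower, and the median log2 ratio was 0.019.

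**Figure D2:**
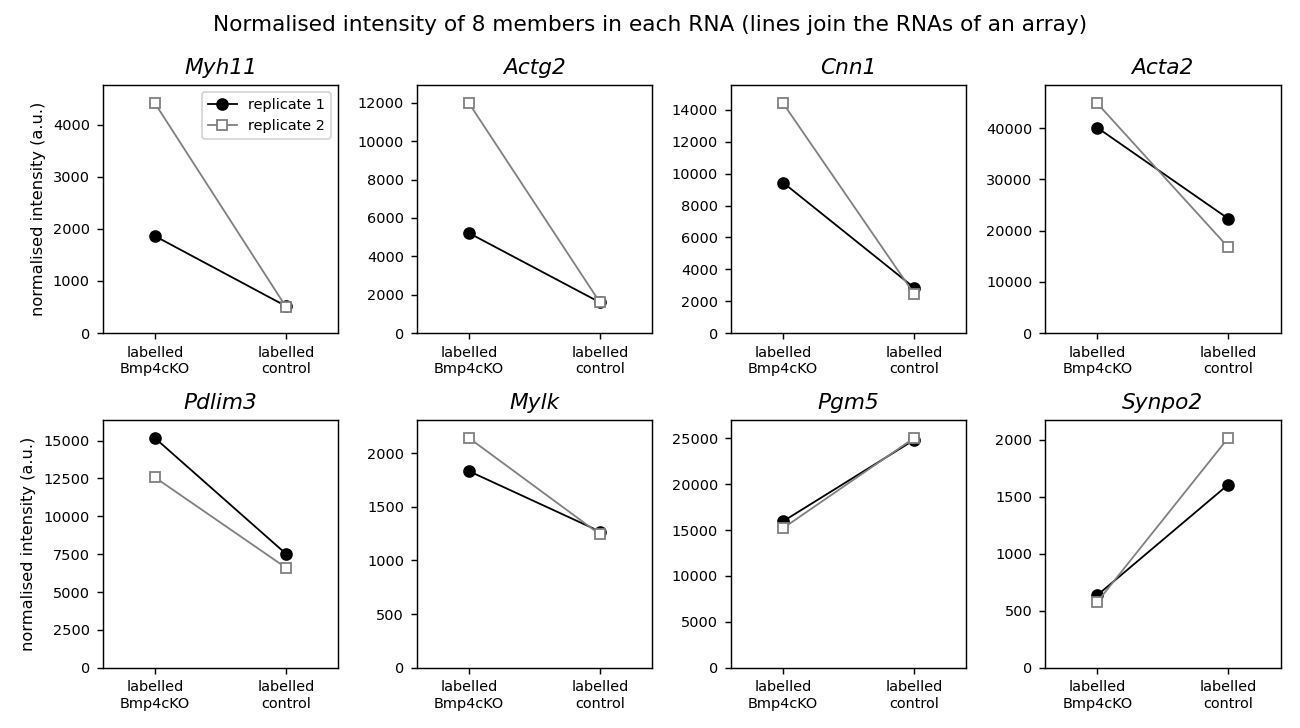
Normalised intensity (vertical, arbitrary units, from 0) of 8 muscle-restricted genes in each RNA, labelled Bmp4cKO on the left and labelled control on the right; black circles are replicate 1, open squares replicate 2, and a line joins the RNAs of an array. For Myh11, Actg2 and Cnn1 the RNAs labelled Bmp4cKO lie apart from each other and above the RNAs labelled control; for Synpo2 (576 to 636 in RNA labelled Bmp4cKO, against 1605 to 2013 in RNA labelled control) and Pgm5 they lie below.

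Among the myosin genes, Myh11 passed the test and the others did not. Mylk, the myosin light chain kinase that starts contraction, had intensities of 1832 and 2141 in RNA labelled Bmp4cKO, against 1270 and 1243 in RNA labelled control. Its groups did not overlap, with a log2 ratio of 0.66 ± 0.18 (SD, n = 2; adjusted p = 0.093), which did not pass. Myl9, the regulatory light chain that this kinase phosphorylates, differed little: 95042 and 89083 in RNA labelled Bmp4cKO, against 90712 and 86006 in RNA labelled control, a log2 ratio of 0.06 ± 0.01 (SD, n = 2; adjusted p = 0.91). Myh9 and Myh10, the non-muscle myosin heavy chains, had log2 ratios of 0.08 ± 0.18 and -0.20 ± 0.17 (SD, n = 2). Myh11 exceeded Myh9 by 1.89 and 2.91 on the log2 scale on replicates 1 and 2, and Myh10 by 2.17 and 3.20. Myl6, the essential light chain shared by muscle and non-muscle myosin, gave -0.43 and 0.75 on replicates 1 and 2, the widest disagreement between the arrays of any broadly expressed member, and Myl9 minus Myl6 was 0.50 and -0.70.

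The regulators of myosin phosphatase showed smaller values. Ppp1r14a, known as CPI-17, inhibits the phosphatase in smooth muscle, and its log2 ratios were 0.22 and 0.67 (adjusted p = 0.29). Ppp1r12a, the targeting subunit of the phosphatase, gave 0.42 and 0.38 (adjusted p = 0.21), the highest mean among the broadly expressed genes. Ppp1r12b, a related subunit of striated and smooth muscle, gave -0.07 and 0.04. Ppp1r12b minus Ppp1r12a was -0.49 and -0.33. None of these 3 passed the test, and Ppp1r14a and Ppp1r12a had positive ratios on both arrays.

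Among the intermediate filament genes, Des, desmin, had a log2 ratio of 0.39 ± 0.03 (SD, n = 2; adjusted p = 0.23), with 2066 and 2531 in RNA labelled Bmp4cKO and 1603 and 1913 in RNA labelled control. The groups did not overlap, and the ratio was nearly the same on each array. Vim, vimentin, the intermediate filament of mesenchymal cells, gave -0.11 on replicate 1 and 0.73 on replicate 2, so that Des minus Vim was 0.47 and -0.32. Synm, synemin, which joins desmin filaments to the cell edge, averaged -0.19 with all 4 intensities between 182 and 219.

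The genes of dense bodies and adhesion plaques went both ways. Pdlim3, the actinin-associated LIM protein of muscle, had intensities of 15161 and 12565 in RNA labelled Bmp4cKO, against 7529 and 6610 in RNA labelled control. The groups did not overlap, and the log2 ratios of 1.01 and 0.93 were almost the same on both arrays (mean 0.97 ± 0.06, SD, n = 2; adjusted p = 0.035). Pdlim7, a relative expressed in many tissues, was at -0.36 and -0.32 (adjusted p = 0.28), so that Pdlim3 exceeded it by 1.37 and 1.25 on the log2 scale. The pairs of related genes whose differences are given were chosen after their values were seen, and no test was made of them. The plot of both arrays against each other sets Pdlim3 on the diagonal and Myh11, Actg2 and Cnn1 above it.

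**Figure D3:**
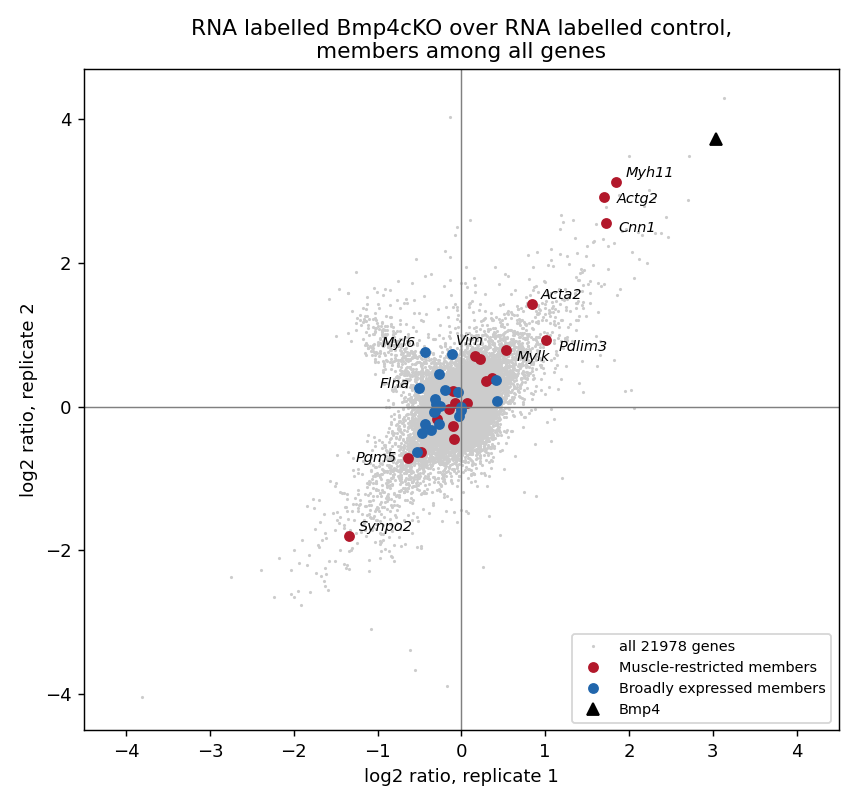
Log2 ratio of RNA labelled Bmp4cKO over RNA labelled control on replicate 1 (horizontal) and replicate 2 (vertical), for all 21978 genes (grey), muscle-restricted members (red), broadly expressed members (blue) and Bmp4 (triangle). Myh11, Actg2 and Cnn1 lie toward Bmp4 in the upper right, Synpo2 in the lower left, and 11 members, among them Myl6, Vim and Flna, have opposite signs on the 2 arrays.

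Synpo2, synaptopodin 2 or myopodin, an actin-bundling protein of muscle, was the only member that passed in the direction opposite to Bmp4. Its intensity was 636 and 576 in RNA labelled Bmp4cKO, against 1605 and 2013 in RNA labelled control. The groups did not overlap, and the log2 ratio was -1.57 ± 0.33 (SD, n = 2; adjusted p = 0.025). This value belongs to the brightest probe, at chr3:122779459-122779518 (mm9). The other 2 passing probes of Synpo2, at chr3:122815498-122815557 and chr3:122782094-122782153, also gave negative ratios, but only of -0.56 and -0.59. The mean of the 3 probes was -0.91, short of a 2-fold difference. Which transcripts of the gene each probe reads was not tested.

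Pgm5, aciculin, a protein of adhesion plaques in muscle, pointed the same way as Synpo2 without passing the test. Its intensity was 15951 and 15202 in RNA labelled Bmp4cKO, against 24801 and 25011 in RNA labelled control. The groups lay well apart, with a log2 ratio of -0.68 ± 0.06 (SD, n = 2; adjusted p = 0.068), and its 3 probes all lay between -0.68 and -0.56. Filip1l, which interacts with filamin, gave -0.53 and -0.63 (adjusted p = 0.099), and was the only broadly expressed member whose mean lay more than 0.5 from 0. Its intensity was 5230 and 4263 in RNA labelled Bmp4cKO, against 7544 and 6606 in RNA labelled control, with no overlap.

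The rest of the dense body and adhesion genes lay closer to 0. Csrp1, a LIM protein of smooth muscle dense bodies, gave 0.29 and 0.36 (adjusted p = 0.30). Csrp2, its relative, gave 0.42 and 0.07, so that Csrp1 minus Csrp2 was -0.13 and 0.28. Nexn, nexilin, an actin-binding protein of muscle, averaged -0.23. Of the adhesion plaque proteins that all adherent cells use, Actn1 (alpha-actinin 1) averaged -0.33 and Zyx (zyxin) -0.26, both negative on each array, whereas Vcl (vinculin) was at -0.03 and Tln1 (talin 1) at -0.12. Flna, filamin A, which crosslinks actin filaments, gave -0.50 on replicate 1 and 0.25 on replicate 2. Over the 13 genes of dense bodies and adhesion 1 passed as higher and 1 as lower, and 8 had negative ratios on both arrays against 3 with positive ones. Of all 21978 genes, 6733 had negative ratios on both arrays and 6199 positive ones.

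The 3 genes of energy supply and calmodulin binding all had negative ratios on both arrays, as did 6733 of 21978 genes. None of the 3 passed the test. Pcp4, which binds calmodulin and is found in smooth muscle, had 631 and 582 in RNA labelled Bmp4cKO, against 878 and 902 in RNA labelled control (log2 ratio -0.55 ± 0.11, SD, n = 2; adjusted p = 0.12). Its groups did not overlap. Ckb, brain-type creatine kinase, averaged -0.08. Ckm, muscle creatine kinase, averaged -0.27 with intensities of 128 to 145 in RNA labelled Bmp4cKO, where it was well above background on only 1 of the 2 arrays. Every other measured member was well above background in all 4 channels.

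**Figure D4:**
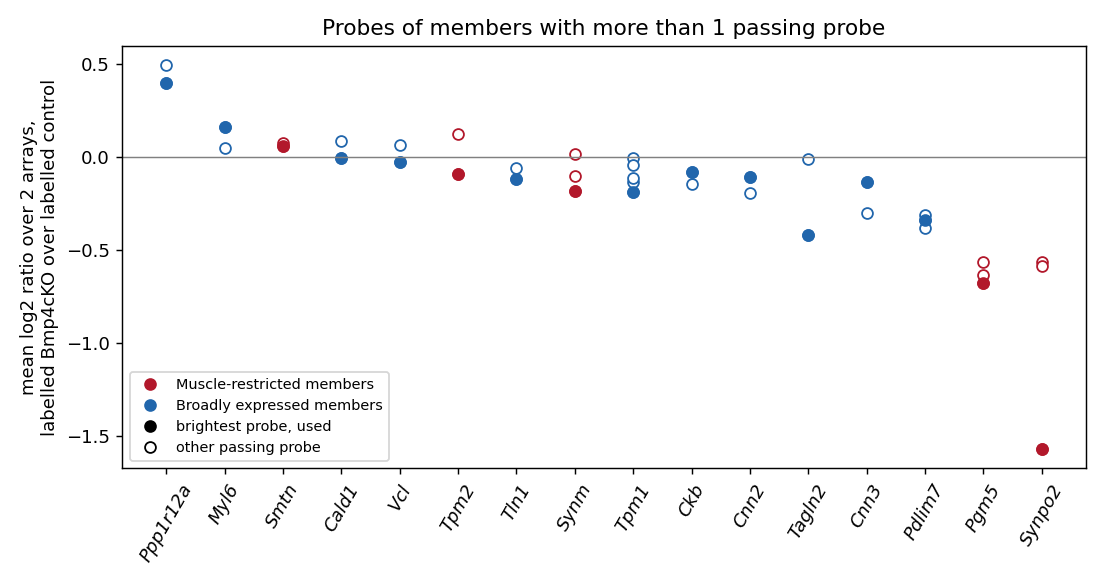
Mean log2 ratio over 2 arrays (vertical) of every passing probe of the 16 members with more than 1; filled circles are the brightest probe, which stands for the gene, and open circles the others, in red for muscle-restricted and blue for broadly expressed genes. The probes of a gene spread by a median of 0.10, and Synpo2 by 1.01.

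For 16 members more than 1 probe passed, and the plot of these probes shows how far the value of a gene depends on the probe. In 12 of the 16 all probes had the same sign. In Cald1, Synm, Tpm2 and Vcl they did not, and there every probe lay between -0.19 and 0.12 on the log2 scale. After Synpo2, the widest spread was that of Tagln2, at 0.41: its second probe gave -0.01. Tpm1 had 5 passing probes, all between -0.19 and -0.01. Myh11, Actg2, Cnn1, Acta2, Pdlim3 and Mylk each rest on 1 probe sequence, so that no second probe checks them.

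As groups, the muscle-restricted genes were spread more widely than the broadly expressed genes. The standard deviation of the mean log2 ratio across genes was 1.02 for the 20 muscle-restricted genes and 0.24 for the 21 broadly expressed ones. The median absolute log2 ratio was 0.44 and 0.16 in these classes, against 0.12 over all genes. By that measure the broadly expressed genes were not narrower than genes at large. The median log2 ratio of the muscle-restricted genes was 0.19, with 0.11 on replicate 1 and 0.29 on replicate 2. That of the broadly expressed genes was -0.11, with -0.27 on replicate 1 and 0.01 on replicate 2, so that the median of the broadly expressed genes changed sign between the arrays. The median over all genes was -0.0091. Of the muscle-restricted genes 11 were within 0.5 of 0, and of the broadly expressed genes 20 of 21, against 92.2% of all genes.

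Both RNAs labelled Bmp4cKO lay above both labelled control for 10 of the 20 muscle-restricted genes and below for 6, against 18.8% and 19.6% of all genes. Among the broadly expressed genes, 1 lay above (Ppp1r12a) and 6 below. The muscle-restricted genes thus hold 11 members with positive ratios on both arrays, of which Myh11, Actg2, Cnn1 and Pdlim3 passed the test. They also hold 7 with negative ratios on both arrays, of which Synpo2 passed. Smtn and Ppp1r12b had opposite signs, and their means, like that of Myl9, were near 0. The median of the class describes none of these. Of the 41 members, 13 were higher on both arrays, 17 lower on both, and 11 had opposite signs. Of all 21978 genes, 6199 were higher on both, 6733 lower on both, and 9046 (41.2%) had opposite signs. All 9 broadly expressed and 2 muscle-restricted genes (Smtn and Ppp1r12b) with opposite signs were lower in the RNA labelled Bmp4cKO on replicate 1 and higher on replicate 2.

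By the dye swap, this disagreement can also be stated in terms of the dyes. On replicate 1 the RNA labelled control carried the red dye, and on replicate 2 the RNA labelled Bmp4cKO did, so that a gene reading brighter in red on both arrays has opposite signs. Lower on replicate 1 and higher on replicate 2 is therefore the same as brighter in red on both arrays. It holds for all 11 members with opposite signs, by a median of 0.21 on the log2 scale, and is no separate evidence. Of the 9046 genes with opposite signs among all genes, 4157 read brighter in red on both arrays. Among all genes the median of red over green was -0.0078. Among the 200 genes with the brightest probes it was 0.62, and 191 of the 200 read brighter in red on both arrays. Only 1 member, Myl6, is among these 200. Their median log2 intensity was 17.2, against 16.3 for the 11 members with opposite signs. Probes of the broadly expressed members had a median log2 intensity of 15.1, those of the muscle-restricted members 12.1, which describes the spots and not the amounts of RNA. The part of the dye in the members' disagreement was not tested, and in the mean over the dye-swapped arrays a dye effect of equal size cancels.

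**Figure D5:**
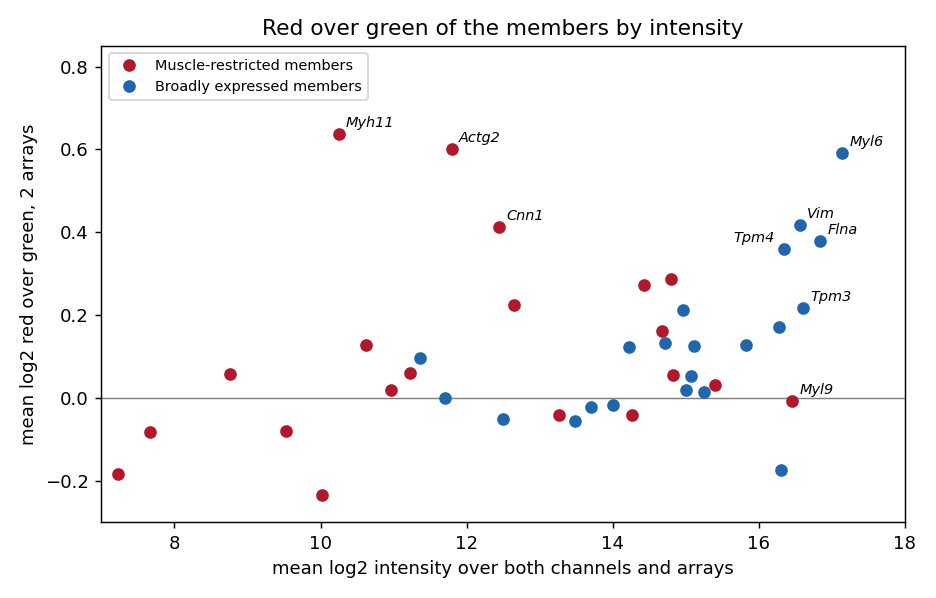
Mean log2 ratio of red over green on the 2 arrays (vertical) against mean log2 intensity over both channels and arrays (horizontal) for the 41 measured members, muscle-restricted in red and broadly expressed in blue. Myl6, Vim, Flna and Tpm4, at the bright end, read brighter in red; Myh11, Actg2 and Cnn1 are also above 0 there, because their ratio was larger on replicate 2 than on replicate 1.

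Whichever dye the RNA labelled Bmp4cKO carried, it had more Myh11, Actg2 and Cnn1. Their fold differences were 3.60, 3.27 and 3.31 on replicate 1, where this RNA was green, and 8.71, 7.51 and 5.86 on replicate 2, where it was red. The authors' deposited table gives signed folds of -4.06 and -9.92 for Myh11, -3.38 and -7.77 for Actg2, and -3.21 and -6.19 for Cnn1, on replicates 1 and 2. These run with the table's Bmp4 values and have sizes near those above.

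The promoters were searched for the CArG box, since many of these genes are textbook SRF targets. RefSeq promoter sequences (assembly GRCm38.p6, from 250 bases before to 50 after each gene's start) were at hand for 37 members, Actg2, Csrp2, Myh11, Nexn and Tagln having no entry. An exact match to the CArG consensus, which reads the same on both strands, stood in 5 of the 37 (13.5%), against 488 of 27025 genes (1.81%). Of the 5, Myl9 is muscle-restricted and Cnn2, Filip1l, Myl6 and Vcl are broadly expressed, and none of the 5 passed the expression test. With 1 mismatch allowed, 15 of the 37 held one (40.5%), against 23.8% of all genes. By class, these were 7 of 17 muscle-restricted (41.2%) and 8 of 20 broadly expressed genes (40.0%). Besides Acta2 and Pdlim3, near matches without an exact match stood in Pcp4, Ckm and Synm (log2 ratios -0.55, -0.27 and -0.19). They also stood in Lmod1, which has no value, and in Cald1, Flna, Tpm1 and Tpm3. Cnn1 and Synpo2, which passed the expression test, held neither kind. The 5 exact matches are shown, with the matching bases in capitals, together with the near matches of Acta2 and Pdlim3, the muscle-restricted genes with a ratio near or above 1 that hold one; positions are GRCm38.p6.
Cnn2, chr10:79988519-79988578, plus strand: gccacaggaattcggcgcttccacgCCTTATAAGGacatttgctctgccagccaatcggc
Filip1l, chr16:57549155-57549214, plus strand: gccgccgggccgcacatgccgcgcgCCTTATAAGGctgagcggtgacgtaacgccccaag
Myl6, chr10:128493025-128493084, minus strand: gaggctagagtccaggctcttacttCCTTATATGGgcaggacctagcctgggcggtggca
Myl9, chr2:156775278-156775337, plus strand: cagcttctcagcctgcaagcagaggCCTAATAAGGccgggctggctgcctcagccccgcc
Vcl, chr14:20929148-20929205, plus strand: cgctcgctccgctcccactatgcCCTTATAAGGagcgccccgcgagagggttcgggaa
Acta2 near match, chr19:34255423-34255482, minus strand: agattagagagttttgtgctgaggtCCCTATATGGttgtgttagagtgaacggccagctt
Acta2 second near match, chr19:34255374-34255432, minus strand: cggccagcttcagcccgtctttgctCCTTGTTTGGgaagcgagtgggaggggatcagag
Pdlim3 near match, chr8:45885362-45885421, plus strand: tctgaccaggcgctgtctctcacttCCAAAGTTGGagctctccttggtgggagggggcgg

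The exact matches of Cnn2, Filip1l and Vcl had the same 10 bases, at 56, 62 and 227 bases before the start, and their genes' log2 ratios were -0.11, -0.58 and -0.03. Those of Myl6 and Myl9 stood 50 and 161 bases before the start, beside log2 ratios of 0.16 and 0.06. A match to these letters describes the sequence and not a bound site, and the box may lie outside this window in other members.

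Other genes of contraction were read from lists that do not overlap the members. Of 24 genes for the calcium, kinase and cyclic GMP control of contraction, 22 were measured, and 0 passed the limma test in either direction. Their median log2 ratio was 0.10, and the largest values were those of Cacnb2, a calcium channel subunit (0.55 ± 0.16, SD, n = 2; adjusted p = 0.13), and Gucy1a1, a subunit of soluble guanylate cyclase (-0.44 ± 0.07, SD, n = 2; adjusted p = 0.17). Of 35 further genes of dense bodies, adhesion and small heat shock proteins, 1 passed as higher and 0 as lower, with a median of 0.03. That gene was Hspb6, a small heat shock protein of smooth muscle, with 11345 and 13749 in RNA labelled Bmp4cKO, against 5097 and 5480 in RNA labelled control (log2 ratio 1.24 ± 0.12, SD, n = 2; adjusted p = 0.025). Across both lists 14 genes had an unadjusted p under 0.05, a threshold that 3191 of all 21978 genes met.

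Among 11 regulators of smooth muscle genes, 1 passed, Tbx18, the gene that carries cre. Myocd, myocardin, the coactivator that drives contractile genes with SRF, had 530 and 1117 in RNA labelled Bmp4cKO, against 303 and 327 in RNA labelled control. Its groups did not overlap, with a log2 ratio of 1.29 ± 0.68 (SD, n = 2, limma adjusted p = 0.085). As for Myh11, the intensity labelled Bmp4cKO was higher on replicate 2 than on replicate 1. Srf itself gave -0.13 and 0.52. Foxf1, a mesenchymal factor, averaged 0.59 (adjusted p = 0.11). Myocd, Srf and Foxf1 are named here after their values were seen.

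Markers of other cell types in the dissected ureters differed between the labels too, and every listed marker was above background in at least 1 label. Of 10 urothelial markers 5 passed as higher and 0 as lower, led by Upk1b (3.72 ± 0.82), Upk3a (2.48 ± 0.42), Upk2 (2.41 ± 0.76) and Pparg (2.27 ± 0.16, SD, n = 2 each). Krt5 (0.06) and Trp63 (0.04) differed least. The sum over the 10 was 117394 to 128423 in RNA labelled Bmp4cKO, against 58777 to 59798 in RNA labelled control. Krt18, which did not pass, alone made 82702 and 58347 of it in RNA labelled Bmp4cKO, against 42805 and 44814 in RNA labelled control, on replicates 1 and 2. Krt5, Trp63 and Krt18 are named here after their values were seen. Of 16 skeletal and cardiac muscle genes, which share filament types with the members, Actc1 passed as higher (1.11) and Myog as lower (-0.89), 2 were higher and 13 lower on both arrays, and the sum over the 16, of which Actc1 alone made 13037 and 18736 in RNA labelled Bmp4cKO against 7008 and 7430 in RNA labelled control, was 21733 to 27857 in RNA labelled Bmp4cKO, against 19305 to 20982 in RNA labelled control. Of 8 pericyte and vascular smooth muscle genes 0 passed, Ren1 (-0.62 and -3.38 on replicates 1 and 2) and Cspg4 (-0.38) having the largest values. The sum over the 8 was 33495 to 40320 in RNA labelled Bmp4cKO, against 39552 to 54406 in RNA labelled control. Ren1 alone made 612 and 1230 of it in RNA labelled Bmp4cKO, against 940 and 12821 in RNA labelled control, on replicates 1 and 2. Of 8 endothelial markers 0 passed, Sox17 (0.66) and Cldn5 (0.62) being highest, and the sum was 86720 to 102761 in RNA labelled Bmp4cKO, against 72114 to 75539 in RNA labelled control. Those that passed as lower in the RNA labelled Bmp4cKO were 3 of 8 neuronal and glial genes (among them Tubb3 at -1.52 and Elavl3 at -0.89) and 2 of 6 kidney stroma genes (Smoc2 -1.43, Alx1 -1.30). The neuronal and glial sum was 9368 to 11239 in RNA labelled Bmp4cKO, against 16031 to 16185 in RNA labelled control. The kidney stroma sum was higher in RNA labelled Bmp4cKO on replicate 1 (262166 against 247953) and lower on replicate 2 (214386 against 293280). Of 4 mesothelial genes Msln (1.93) and Upk3b (1.32) passed as higher and Wt1 (-1.34) as lower, with a sum of 7347 to 8257 in RNA labelled Bmp4cKO, against 10596 to 11535 in RNA labelled control. Wt1 alone made 4101 and 3665 of it in RNA labelled Bmp4cKO, against 9311 and 10364 in RNA labelled control. Of 4 genes of bladder or Wolffian duct mesenchyme 0 passed, Hoxd13 (-1.23) and Hoxa13 (-0.96) having the largest values, and the sum was 33860 to 34625 in RNA labelled Bmp4cKO, against 47478 to 51766 in RNA labelled control. The median log2 ratio was 2.07 for the urothelial, 0.31 for the endothelial, 0.46 for the mesothelial, -0.27 for the pericyte and vascular smooth muscle, -0.32 for the kidney stroma, -0.34 for the skeletal and cardiac muscle, -0.86 for the neuronal and glial and -0.92 for the bladder or Wolffian duct list. The part of the makeup of the dissected tissue in the members' differences was not tested.

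The smooth muscle markers were present in all 4 RNAs, since Myh11, Actg2 and Cnn1 were well above background in each, including the dimmer label.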

How the data were processed

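Probe intensities came from both two-colour Agilent arrays. Per the file headers, the authors quantified spot and background intensities with Agilent Feature Extraction 10.7.3.1, and each deposited LogRatio is a log10 value of red against green. The authors' deposited value table holds a score per probe, a signed fold whose direction is not stated beyond the sample titles, which name Bmp4cKO before control. The median of both its columns was 1. For probes well above background in all 4 channels, the scanner ratio was turned to RNA labelled control over RNA labelled Bmp4cKO. On the log2 scale, 99.5% of the table's values, signs included, then differed from it by less than 0.01. Ratios were taken here from mean signals after normexp background correction (offset 50) and loess (span 0.3) within each array, with control spots at weight 0 and outlier spots left out, using limma 3.58.1 under R 4.3.3. Repeated spots were averaged per probe. A probe passed if well above background in both RNAs of a label, and the brightest passing probe stood for its gene. Printed intensities are the channel values after loess and between-array Aquantile scaling, with the offset included. The 2 arrays, dye-swapped, were fitted with lmFit and eBayes, with Benjamini-Hochberg adjustment over 21978 genes. Each test had 1 residual and 4.03 prior degrees of freedom, so p-values measure mainly a spread shared over genes, which may be technical.

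Depth is given by signal over background: medians were 15.1 and 15.8 in the green channel and 7.18 and 7.58 in the red one on replicates 1 and 2, with 69.3% to 74.6% of spots well above background and 0 saturated. Between the arrays the log2 ratios gave Pearson's r = 0.48 and Spearman's rho = 0.31 across genes, which are not independent replicates. Members were taken by the array's gene name; other genes were named through RefSeq accessions or synonyms. Members, classes and lists were chosen with earlier results of these data known. All members are given; levels in every RNA are given for those that passed, those at least 2-fold on both arrays and others chosen after seeing their values, and of other lists up to 4 called genes or else the 2 with the largest change are named, and 1 gene that this rule takes is not reported here. Alternatives covered the background correction, normalization, filter, probe rule, prior and model, and each array alone. The limma steps were tested on simulated data.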

Additional observations from a re-analysis of the deposited data

Results flagged for a closer look

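Several members had ratios of opposite sign on the 2 arrays, which differ in dye orientation and in the labelled sex; the difference between the arrays was not tested, since each holds 1 RNA of each label. The difference of the log2 ratio, replicate 2 minus replicate 1, was 1.18 for Myl6, 0.84 for Vim, 0.76 for Flna, 0.72 for Tpm4, 0.43 for Tpm3, 0.42 for Cnn2, 0.34 for Cnn3, 0.32 for Smtn, 0.26 for Tln1, 0.25 for Myh9 and 0.12 for Ppp1r12b. The median of the broadly expressed members also changed sign, by 0.28, and so did that of all members, by 0.15. All of these genes were lower on replicate 1 and higher on replicate 2, which by the dye swap is the same as brighter in red on both arrays. The part of the dye was not tested.

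Signal of Y-linked genes stood in the RNA labelled control of replicate 2 only, with intensities of 5638 for Ddx3y and 4653 for Eif2s3y. In the other 3 RNAs, that labelled Bmp4cKO of the same array included, neither gene was well above background.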

How the results depend on the processing

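The direction of Myh11, Actg2, Cnn1, Pdlim3 and Synpo2 was the same in every alternative computed from the scanner signals, and turned only with the authors' deposited value table, which gives -2.67, -2.36, -2.16, -0.97 and 1.69 for them as log2 values and also turns Bmp4. The calls depend on the normalization and the variance model. With median centring and with no normalization in place of loess, 0 members passed in limma (10 and 3 at an unadjusted p under 0.05), 0 other contraction genes did (6 and 0), and Bmp4 itself missed the threshold at 3.38 (adjusted p = 0.30) and 3.36 (adjusted p = 0.28). There the 2 arrays correlated at 0.077, against 0.48 with loess. With an intensity trend in the prior, 9 members passed (6 higher, 3 lower) and 2 other contraction genes, among 1282 genes called in all, against 420. With separate channels and no replicate block 3 members passed, 2 higher and 1 lower, Actg2 (adjusted p = 0.051) and Pdlim3 (adjusted p = 0.053) missing it. The array is itself the pairing, so the main fit is the paired one.

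With a robust prior Myh11 (adjusted p = 0.14) and Actg2 (adjusted p = 0.13) missed the threshold. Acta2 passed in 6 of 12 alternatives, its adjusted p reaching down to 0.012. Mylk, Pgm5 and Filip1l passed only with the intensity trend. With probes above background in all 4 channels, which leaves out Ckm, the median of the muscle-restricted genes was 0.32, and with no filter 0.087, against 0.19. The median of the broadly expressed genes was -0.0033 with median centring and -0.025 with no normalization, against -0.11. Leaving out an array leaves no residual degree of freedom and gives values with no test. On either array kept, 5 members were at least 2-fold, but not the same 5. Myh11, Actg2, Cnn1 and Synpo2 were so on both. Pdlim3 was so only on replicate 1 (1.01, against 0.93 on replicate 2), and Acta2 only on replicate 2 (1.42, against 0.84 on replicate 1). Bmp4 then had 3.04 to 3.71, the median of the muscle-restricted genes 0.11 to 0.29 and that of the broadly expressed -0.27 to 0.01. The number of arrays, 2, and the dim red signal limit the precision.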
